A study of Homo sapiens with 4 samples.

Results

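The TGF-beta and BMP pathway was represented by 48 genes for ligands, receptors, SMAD proteins, antagonists and latency proteins, out of 20098 protein-coding genes on chromosomes 1 to 22 and X. They were taken from a list of gene names, and a peak was given to a gene when it overlapped the gene body or the 5 kb on either side. SW-13 cells are an adrenocortical carcinoma line without BRG1 or BRM, which are the ATPase subunits of SWI/SNF chromatin remodelers. A Sleeping Beauty vector with a doxycycline-dependent promoter was integrated for V5-tagged BRG1 in its wild-type form (iBRG1) or with its helicase/SANT-associated (HSA) domain deleted (i∆HSA). Each line was 1 clone and was given doxycycline for 24 h, after which 300000 cells of each were collected for the assay. In CUT&RUN, an antibody against V5 brought a nuclease to the tagged protein and the DNA released around it was sequenced, with 2 replicates per construct. Each construct had 1 peak list, 24212 peaks for iBRG1 and 25371 for i∆HSA, with no value per replicate, so that no difference between the lists could be set against replicate error or tested. The depth reached is unknown, gene expression was not measured in these lists, and the identity of the cells could not be checked against marker genes.

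Ligands of the TGF-beta family are secreted dimers, and TGF-beta itself is held in a latent form in the matrix through binding proteins. A ligand joins type II and type I receptor kinases, the type I receptor phosphorylates receptor SMADs, and these enter the nucleus with SMAD4. SMAD2 and SMAD3 serve TGF-beta and activin receptors, SMAD1, SMAD5 and SMAD9 serve BMP receptors, and SMAD6 and SMAD7 inhibit the pathway. The pathway is known for its control of growth arrest and of matrix genes.

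Peaks of both constructs lay at pathway genes about as often as at other genes. An iBRG1 peak was found at 23 of 48 members, beside 44.1% of protein-coding genes and a sum of 24.3 genes given by the share with a peak among genes of like length. An i∆HSA peak was found at 30 members, beside 49.2% of protein-coding genes and 26.7 by like length. Both lists had a peak at 18 members (30% of protein-coding genes, and 17.3 by like length). Genes of like length were the protein-coding genes from 0.8 times the length of each member to the same factor above it, since longer genes hold more peaks. The 13 members with no peak in either list were TGFB3, INHBA, INHBB, INHA, NODAL, GDF15, BMP3, BMP4, ACVRL1, BAMBI, NOG, GREM1 and FST.

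The members held 58 iBRG1 peaks and 56 i∆HSA peaks, where genes of like length would hold 47.9 and 50.9. LTBP1, which binds latent TGF-beta, supplied 12 of the iBRG1 peaks. Without it the values were 46 iBRG1 peaks beside 43.9, and 55 i∆HSA peaks beside 47.5.

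**Figure D1:**
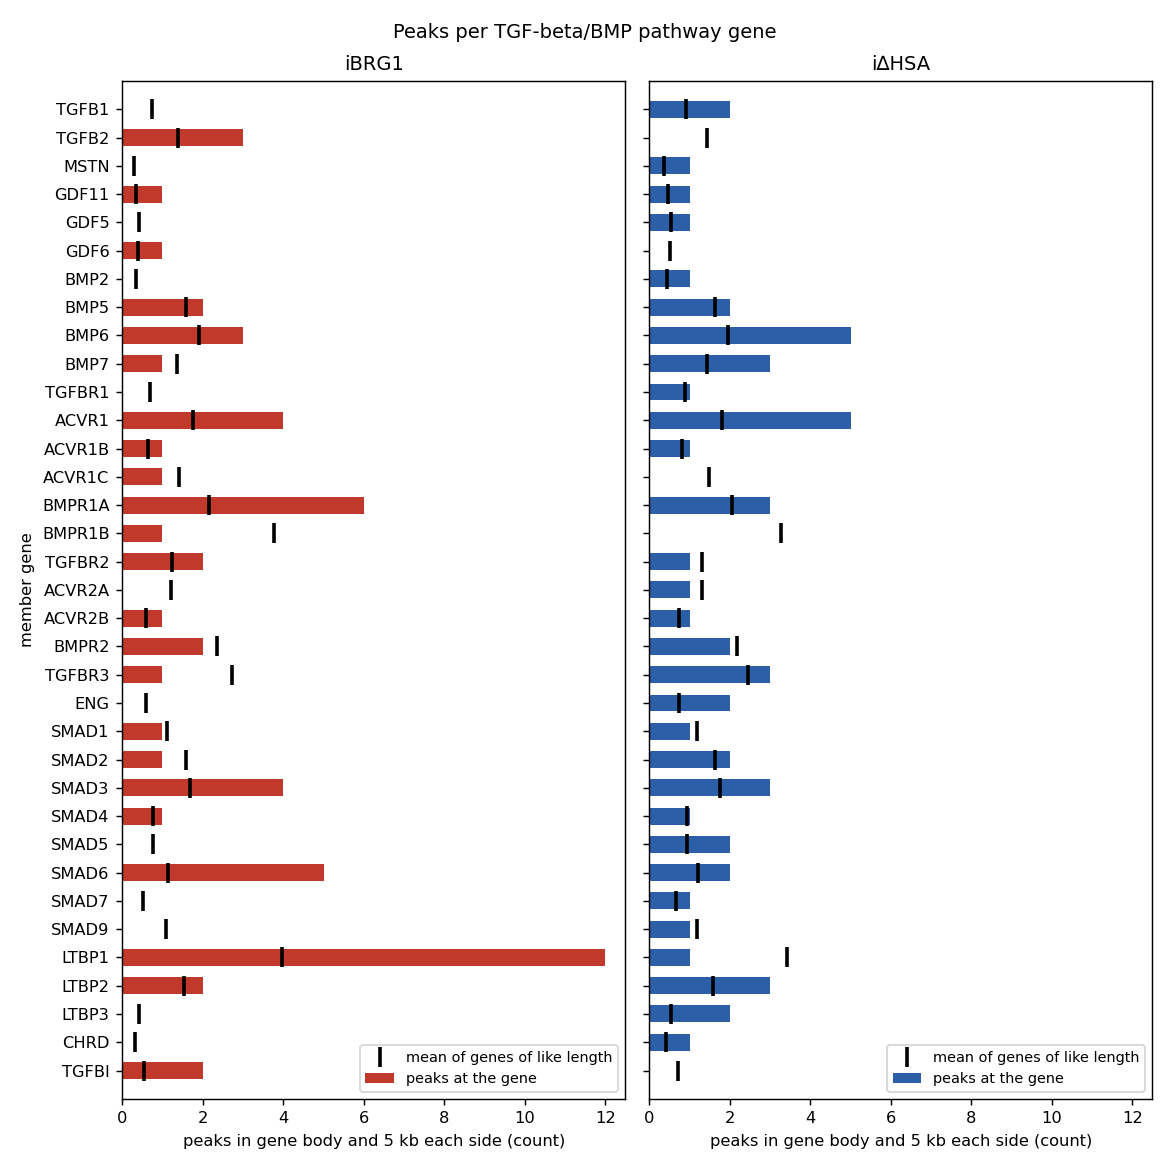
Peaks per gene (count, horizontal axis) in the gene body and 5 kb on each side for the 35 members with a peak, iBRG1 on the left and i∆HSA on the right. Bars are the peaks in each list and black ticks the mean of genes of like length. LTBP1 has 12 iBRG1 peaks and 1 i∆HSA peak, and most other bars are within a few peaks of their tick.

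The share of peaks found in both lists was 31.0% and 32.1% at pathway genes, above the shares over all peaks. Shared peaks are those with 1 bp or more in common with any peak of the other construct, and the rest are list-only. Of the iBRG1 peaks at members, 18 or 31.0% were shared (95% Wilson interval 20.6 to 43.8, which covers counting error only), beside 20.5% of the whole list and 22.4% of the peaks at all protein-coding genes. Of the i∆HSA peaks at members, 18 or 32.1% were shared (21.4 to 45.2), beside 19.6% and 21.6%. The shares over all protein-coding genes lie inside both intervals. A shared peak was found at 13 members, beside 16.4% of protein-coding genes and 9.09 members by like length. When each peak had to cover at least 50% of the other, 8 members had one. The share over other genes was not worked out under that rule, so the 8 cannot be set beside these values.

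The 18 shared pairs lay mostly in introns, 14 of them, and the paired peaks overlapped by a median of 1205 bp (481 to 2881). Their midpoints were a median of 284 bp apart (102 to 1717), and in 17 pairs they were within 650 bp. One peak lay wholly inside the other in 8 pairs. The score is the authors' own whole number for each peak, of unstated scale. It is read here within a list, apart from a cutoff of 5 put on both lists. That cutoff is not alike in the lists, as 27.2% of iBRG1 and 41.1% of i∆HSA peaks reached it. Shared peaks at members had a median score of 5.5 in the iBRG1 list and 6 in the i∆HSA list, and list-only peaks 2 and 3. Over the whole lists the medians were 5 and 8 for shared and 2 and 3 for list-only peaks.

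**Figure D2:**
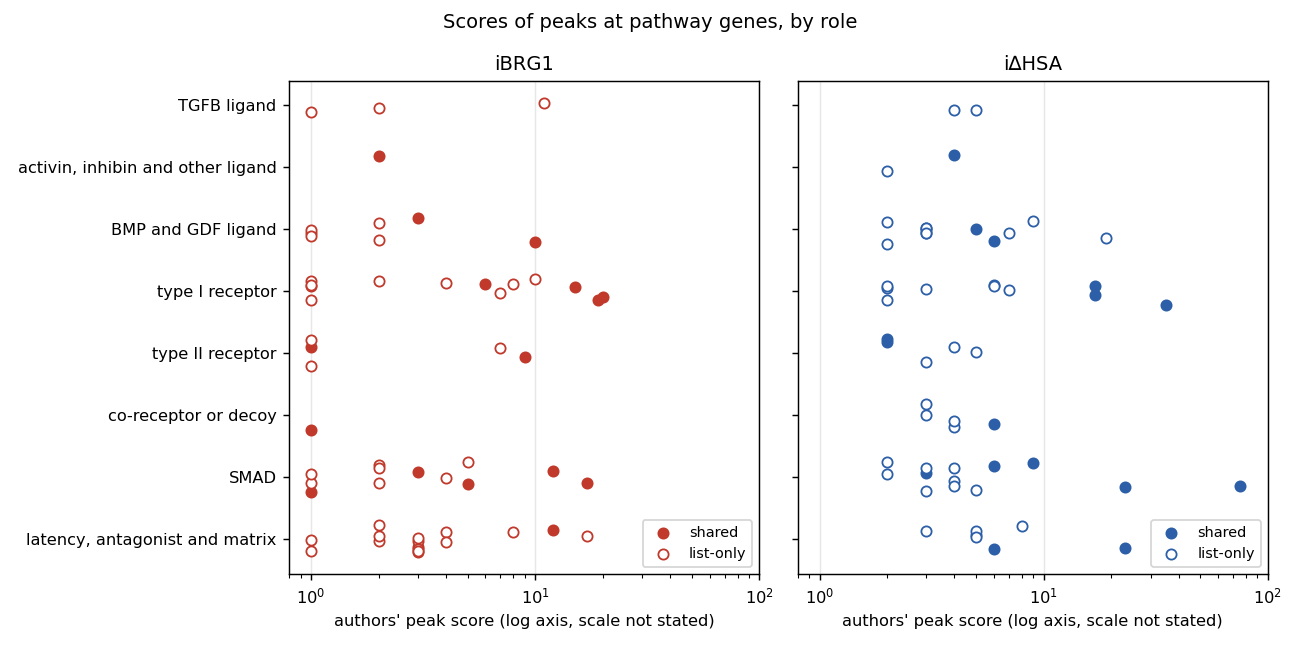
Authors' score (log axis, scale not stated) of each peak at a member, by role of the gene, for iBRG1 (left) and i∆HSA (right). Filled points are shared peaks and open points list-only peaks, and vertical spread within a row has no meaning. Scores at members reach 20 for iBRG1 and 75 for i∆HSA, both at shared peaks.

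Most peaks at pathway genes lay in introns, 41 of 58 for iBRG1 (70.7%) and 37 of 56 for i∆HSA (66.1%). At genes of like length, weighted by the peaks of each member, the intron shares were 63.2% and 53.2%, and both lie inside the Wilson intervals of the members (58.0 to 80.8 and 53.0 to 77.1). A promoter peak overlapped the 1 kb on either side of a start of any transcript of the gene, and 7 members had one for iBRG1 (18.2% of protein-coding genes, and 9.77 by like length). For i∆HSA 8 members had one (20.9% of protein-coding genes, and 10.95 by like length). Many of these starts belong to short internal transcripts. When only the canonical start site was used, 2 members had an iBRG1 promoter peak, ACVR1 and SMAD6 (11.8% of protein-coding genes), and 3 an i∆HSA promoter peak, TGFB1, BMP2 and LTBP3 (14.4%). No member had a peak of both constructs at its canonical start. The member was the gene with the nearest coding start for 48 of the iBRG1 peaks and 47 of the i∆HSA peaks.

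Among the 3 TGF-beta ligand genes, TGFB2 had iBRG1 peaks alone and TGFB1 i∆HSA peaks alone, where like length gives 1.10 genes with a peak in both lists. TGFB2 had 3 iBRG1 peaks and no i∆HSA peak, with genes of like length at a mean of 1.38 and 1.44. All 3 lay in intron 1, with scores of 1, 11 and 2. TGFB1 had no iBRG1 peak and 2 i∆HSA peaks, beside like-length means of 0.73 and 0.92, and 11.8% of genes of its length differed as far in favor of i∆HSA. Those genes were taken from all chromosomes. Chromosome 19, where TGFB1 lies, held 551 iBRG1 and 1048 i∆HSA peaks, a ratio of 1.90 beside 1.05 over all chromosomes. The i∆HSA peak of score 4 at TGFB1 covered its start site and lay within 1 kb of a coding start of the neighboring gene TMEM91 (chr19:41858280-41860402). The peak of score 5 lay nearest to the start of CCDC97. The nearest i∆HSA peak to the TGFB2 peak of score 11 was 84055 bp away.

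That TGFB2 peak (chr1:218547987-218548925, GRCh37) was the only member peak whose center held the SMAD palindrome GTCTAGAC, a paired form of the short SMAD element. Each pattern was looked for on both strands, within 100 bp of the peak midpoint, and the palindrome was found in 0.132% of the iBRG1 list and 0.0985% of the i∆HSA list. At members it was in 1 of 58 peaks for iBRG1 and in 0 of 56 for i∆HSA. The sequence lies in intron 1 of TGFB2 on the plus strand (chr1:218548435-218548496), with the palindrome in capitals. A match describes the letters of the window and not binding by a SMAD protein.
TGFB2 intron 1: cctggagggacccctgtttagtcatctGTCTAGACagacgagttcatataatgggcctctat

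The activin, inhibin and other ligand genes held 1 iBRG1 and 2 i∆HSA peaks over 7 genes, beside 2.48 and 3.20 by like length. GDF11, a relative of myostatin, had a shared pair upstream of its start, with an iBRG1 peak (chr12:56131726-56134222, score 2) and an i∆HSA peak of score 4 (chr12:56131238-56133751). MSTN, which encodes myostatin, had 1 i∆HSA peak of score 2 in its 3' UTR.

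BMP and GDF ligand genes held more i∆HSA peaks than genes of like length, 12 beside 7.55, and a like number of iBRG1 peaks, 7 beside 6.79. BMP6 held 3 iBRG1 and 5 i∆HSA peaks (like-length means 1.90 and 1.95), and 7.14% of genes of like length had as many i∆HSA peaks. The i∆HSA peaks at chr6:7827514-7828157 and chr6:7837057-7838718 lay nearer to the start of TXNDC5 than to that of BMP6. The shared pairs of BMP6 were both in intron 1. The first paired an iBRG1 peak of score 10 (chr6:7730691-7731443) with an i∆HSA peak of score 5 (chr6:7730328-7732646), and the second scores of 3 (chr6:7769931-7770920) and 6 (chr6:7769147-7771166). Each overlap held 1 AP-1 pattern, TGACTCA or TGAGTCA, the site of JUN and FOS dimers.

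BMP7, a ligand of kidney and bone development, had 1 iBRG1 peak of score 2 and 3 i∆HSA peaks of scores 19, 2 and 7. No peak was shared, and the i∆HSA peak of score 19 in intron 3 (chr20:55766295-55768271) lay 65663 bp from the nearest iBRG1 peak. The peak of score 7 lay near an alternative start (chr20:55840138-55840607). BMP5 had 2 peaks of each construct, none shared, at scores of 1 and 1 for iBRG1 and 3 and 9 for i∆HSA. BMP2 had 1 i∆HSA peak of score 3, 0.138 kb from its start (chr20:6747607-6749335), and no iBRG1 peak. GDF5 had 1 i∆HSA peak of score 3 and GDF6 1 iBRG1 peak of score 1.

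The clearest shared sites were at the type I receptor BMPR1A, a BMP receptor kinase. BMPR1A held 6 iBRG1 peaks and 3 i∆HSA peaks, beside 2.15 and 2.06 for genes of like length, of which 5.67% had as many iBRG1 peaks. All 3 i∆HSA peaks were shared. In intron 1 the pairs were chr10:88554885-88556460 (iBRG1, score 15) with chr10:88554858-88556206 (i∆HSA, score 35), and chr10:88557694-88558874 (score 20) with chr10:88557643-88558667 (score 17).

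The third pair, in intron 2, had scores of 6 (chr10:88626885-88628832) and 17 (chr10:88626403-88628688). The iBRG1 score of 20 was the highest of any member in that list, and the first 2 pairs lay 39.3 and 41.9 kb from the canonical start. The third pair and the iBRG1 peaks of scores 7 and 4 lay nearer to the start of MMRN2 than to that of BMPR1A. The overlaps of the intron 1 pairs were AT-rich, at 30.5% GC in both, and the center of the second (chr10:88558131-88558230, plus strand) is shown because it lies under the highest iBRG1 score. These 100 bases held no AP-1 letters and none of the TEAD pattern, GGAATG, which is the site of the TEAD factors, while the whole overlap held 1 AP-1 pattern and no TEAD pattern.
BMPR1A intron 1: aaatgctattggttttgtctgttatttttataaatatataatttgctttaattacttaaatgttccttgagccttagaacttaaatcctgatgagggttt

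ACVR1, a type I receptor for BMPs and activins, held 4 iBRG1 and 5 i∆HSA peaks (like-length means 1.76 and 1.80). Their single shared pair in intron 1 had an iBRG1 score of 19 (chr2:158687038-158689356) and an i∆HSA score of 6 (chr2:158686904-158689286), and its midpoints were 102 bp apart, the closest of any pair. Of the other iBRG1 peaks, 1 of score 8 covered an internal start (chr2:158648610-158649933) and 1 of score 1 the canonical start (chr2:158732773-158734079), which is also near the start of UPP2. The other i∆HSA peaks had scores of 2, 2, 6 and 7 and lay in introns 1 and 2.

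The other type I receptors held few peaks. BMPR1B, 400494 bp long, held 1 iBRG1 peak of score 10 (chr4:95747689-95749235) and no i∆HSA peak, where genes of like length had means of 3.76 and 3.27. ACVR1B had 1 peak of each construct, at scores of 1 and 3, not shared. ACVR1C had 1 iBRG1 peak of score 1 and TGFBR1 1 i∆HSA peak of score 2.

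Type II receptors held 5 peaks of each construct, beside 5.40 and 5.53 by like length. TGFBR2, the receptor that binds TGF-beta itself, had an iBRG1 peak of score 9 in intron 3 (chr3:30699691-30701296) that enclosed an i∆HSA peak of score 2 (chr3:30700608-30701088), and a further iBRG1 peak of score 1. The overlap held 2 AP-1 patterns and 1 TEAD pattern. Its center lies in intron 3 of TGFBR2 (chr3:30700798-30700897, plus strand), with the TEAD letters, read on the other strand, and the AP-1 letters in capitals.
TGFBR2 intron 3: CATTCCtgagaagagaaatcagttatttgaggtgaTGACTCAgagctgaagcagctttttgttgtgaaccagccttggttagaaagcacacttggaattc

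BMPR2, the BMP type II receptor, had 2 iBRG1 peaks of scores 1 and 7 and 2 i∆HSA peaks of scores 3 and 5, none shared. The shared pair given to ACVR2B lay downstream of it at scores of 1 (chr3:38537269-38537994) and 2 (chr3:38537163-38538462), nearest to the start of EXOG. ACVR2A had 1 i∆HSA peak of score 4.

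The 3 co-receptor and decoy genes held 5 i∆HSA peaks and 1 iBRG1 peak, where like length gives 3.53 and 3.57. TGFBR3, or betaglycan, which presents TGF-beta to its receptors, had a shared pair in intron 4 at scores of 1 (chr1:92201934-92203527) and 6 (chr1:92201279-92205357). Its other i∆HSA peaks had scores of 4 and 3, the latter near an alternative start (chr1:92369166-92370958). ENG, the co-receptor endoglin, had 2 i∆HSA peaks of scores 3 and 4, of which the second was near an internal start (chr9:130586463-130588681).

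All 8 SMAD genes had an i∆HSA peak and 5 of them an iBRG1 peak, where like length gives 5.17 and 4.81. They held 12 iBRG1 peaks and 13 i∆HSA peaks, beside 8.63 and 9.51. A shared peak was found at 4 SMAD genes, beside 1.69 by like length. The 3 with i∆HSA peaks alone were SMAD5, SMAD7 and SMAD9. When only scores of at least 5 were kept, i∆HSA peaks remained at SMAD2, SMAD3, SMAD4 and SMAD7 alone. The iBRG1 peaks then remained at SMAD1, SMAD2, SMAD3 and SMAD4.

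**Figure D3:**
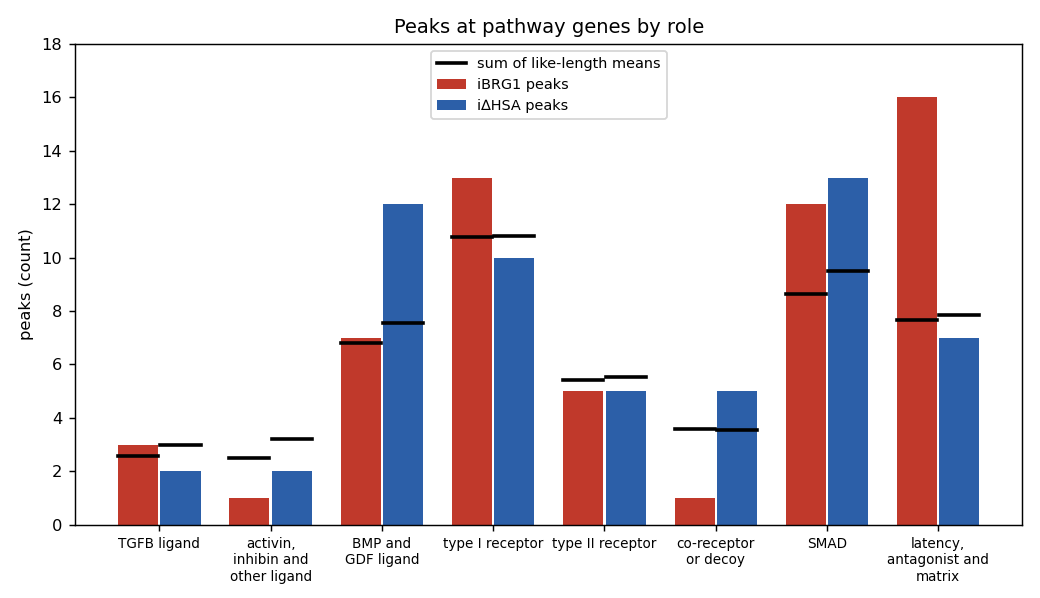
Peaks (count, vertical axis) summed over the genes of each role, iBRG1 in red and i∆HSA in blue. Black lines are the sums of the means of genes of like length. The latency, antagonist and matrix genes hold 16 iBRG1 peaks beside 7.68, of which LTBP1 supplies 12, and the SMAD genes lie above the lines for both constructs.

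SMAD3, which carries TGF-beta and activin signals, held 4 iBRG1 and 3 i∆HSA peaks (like-length means 1.68 and 1.75), all in intron 1. The stronger shared pair had an iBRG1 score of 12 (chr15:67441869-67443447) and an i∆HSA score of 23 (chr15:67442277-67443381), 84.7 kb from the canonical start. The weaker pair had scores of 3 (chr15:67398698-67399779) and 6 (chr15:67397926-67399995). The iBRG1-only peaks had scores of 1, at an internal start (chr15:67417422-67418118), and 2, and the remaining i∆HSA peak a score of 3. The AP-1 pattern in the stronger pair lay in intron 1 (chr15:67442564-67442624, plus strand).
SMAD3 intron 1: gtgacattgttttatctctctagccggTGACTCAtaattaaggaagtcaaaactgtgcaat

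SMAD4, the common partner of the receptor SMADs, had 1 peak of each construct. They were shared, at scores of 17 (chr18:48593770-48597432) and 9 (chr18:48592694-48595074), and were the only promoter peaks at members that were shared. The promoter was that of an internal transcript, and their midpoints were 1717 bp apart, the widest of any pair.

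SMAD2, the other receptor SMAD of TGF-beta signals, had the highest i∆HSA score of any member, 75 (chr18:45375943-45377714), inside an iBRG1 peak of score 5 (chr18:45375392-45377982). The pair overlapped a coding exon, with the midpoints in intron 7. The i∆HSA peak was AT-rich, at 22.9% GC, and the part of base composition in the score was not tested.

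The inhibitory SMAD6 held 5 iBRG1 and 2 i∆HSA peaks, and 1.19% of genes of like length held as many iBRG1 peaks (mean 1.13). That was the lowest such share of any member. All scores at SMAD6 were low. The iBRG1 peaks had scores of 2, 1, 4, 2 and 1, including 1 over the canonical start (chr15:66993024-66994962, score 2). The i∆HSA peaks had scores of 3 and 4, and the shared pair in intron 3 had scores of 1 (chr15:67066367-67068257) and 3 (chr15:67066608-67068502).

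SMAD7, also inhibitory, had 1 i∆HSA peak of score 5 at an internal start (chr18:46468157-46470001) and no iBRG1 peak. SMAD1, which carries BMP signals, had an iBRG1 peak of score 5 at an internal start (chr4:146466822-146467487), nearest to the coding start of MMAA, and a separate i∆HSA peak of score 2. SMAD5 had 2 i∆HSA peaks of scores 4 and 3, and SMAD9 had 1 of score 4.

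**Figure D4:**
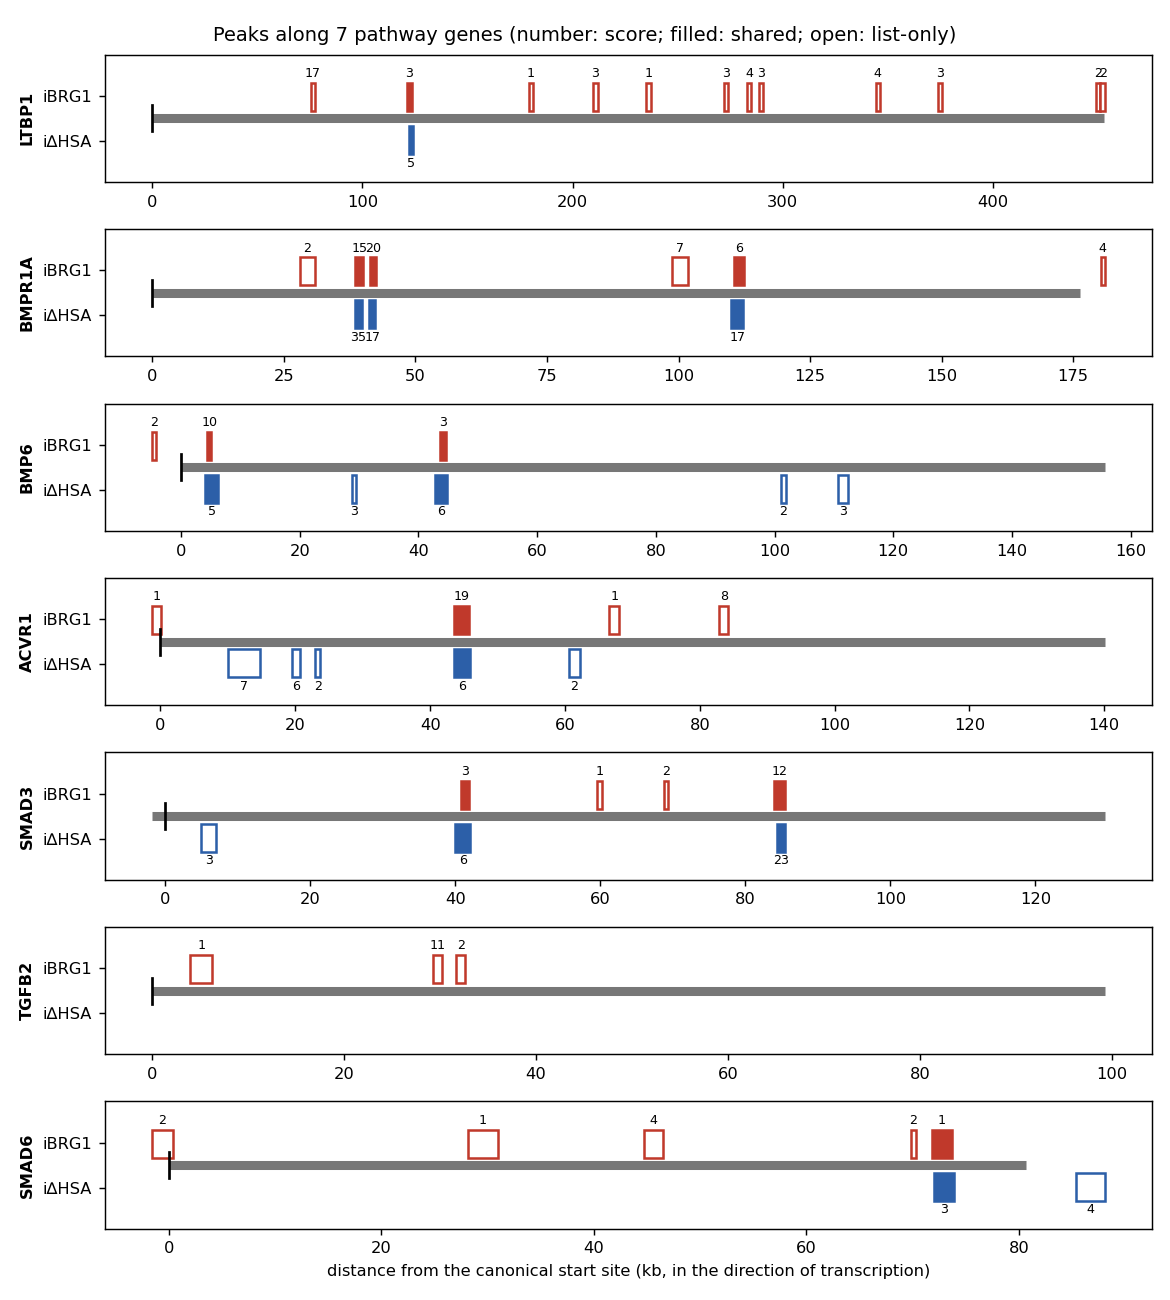
Peaks along 7 members by distance from the canonical start site (kb, in the direction of transcription), with the gene body as a grey bar, the start as a black line, iBRG1 above and i∆HSA below. The number at each peak is its score, filled boxes are shared and open boxes list-only, and narrow peaks are drawn at a minimum width. LTBP1 shows 12 iBRG1 peaks and 1 i∆HSA peak, while the 3 i∆HSA peaks of BMPR1A each lie under an iBRG1 peak.

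LTBP1 stood apart from the other members. It spans 452557 bp (chr2:33172020-33624576) and held 12 iBRG1 peaks and 1 i∆HSA peak, where the 369 genes of like length had means of 3.96 and 3.43. As many iBRG1 peaks were found at 3.25% of those genes, and a difference as far in favor of iBRG1 at 0.542%. LTBP1 was singled out as the member with the most iBRG1 peaks and the largest difference, so these shares are those of an extreme of 48 genes. The i∆HSA peak, of score 5 (chr2:33294553-33295523), was shared with an iBRG1 peak of score 3 (chr2:33293541-33295315) in intron 3. Beyond it no i∆HSA peak was found for 459.4 kb, a stretch with 13 iBRG1 peaks.

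The flanks of LTBP1 were more even, with 8 iBRG1 and 6 i∆HSA peaks in the 500 kb before it and 5 of each in the 500 kb after it. Chromosome 2 as a whole held 2449 iBRG1 and 2026 i∆HSA peaks, a ratio of i∆HSA to iBRG1 of 0.83 beside 1.05 over all chromosomes. The highest iBRG1 score at LTBP1 was 17, in intron 3 (chr2:33247674-33249285), and the other 11 scores were between 1 and 4. When only scores of at least 5 were kept, LTBP1 had 1 peak of each construct. A peak of score 4 covered an internal start (chr2:33516487-33517900), and none covered the canonical start.

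The AP-1 pattern was in the center of 5 of the 12 iBRG1 peaks at LTBP1 (41.7%) and of its i∆HSA peak. Over all members it was in 10 of 58 iBRG1 peaks, 17.2% (9.64 to 28.9), beside 8.90% of the iBRG1 list, and without LTBP1 in 5 of 46, 10.9%. For i∆HSA it was in 4 of 56, 7.14% (2.81 to 17.0), beside 6.18% of the list. The other iBRG1 peaks with it were at BMP6, SMAD3, TGFB2, TGFBI and ACVR1, 1 peak each. The sequences around it are shown for the iBRG1 peaks and, last, for the i∆HSA peak, all from introns of LTBP1 on the plus strand of GRCh37 with AP-1 letters in capitals.
LTBP1 chr2:33248467-33248527, score 17: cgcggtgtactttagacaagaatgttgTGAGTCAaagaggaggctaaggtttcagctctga
LTBP1 chr2:33352205-33352265, score 1: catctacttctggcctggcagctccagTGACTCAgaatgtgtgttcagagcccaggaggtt
LTBP1 chr2:33456055-33456115, score 4: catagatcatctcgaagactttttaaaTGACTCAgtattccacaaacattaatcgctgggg
LTBP1 chr2:33461652-33461712, score 3: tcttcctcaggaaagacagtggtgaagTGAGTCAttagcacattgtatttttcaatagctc
LTBP1 chr2:33546699-33546759, score 3: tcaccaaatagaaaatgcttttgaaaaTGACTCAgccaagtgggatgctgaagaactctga
LTBP1 chr2:33294999-33295059, i∆HSA score 5: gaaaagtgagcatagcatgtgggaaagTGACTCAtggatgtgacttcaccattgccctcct

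The TEAD pattern was in 15.5% of the iBRG1 peaks at members and 12.2% of the iBRG1 list, and in 10.7% of the i∆HSA peaks and 10.2% of that list. The short SMAD element CAGACA was in 17.2% of the iBRG1 peaks at members and 8.93% of those of i∆HSA, beside 12.2% and 10.9% of the lists. The GC-rich SMAD element GGCGCC was in 1 peak of each list, beside 2.11% and 2.43%. The E-box CAGCTG was in 3.45% and 5.36%, beside 6.73% and 5.55%, and CAAGGTCA, the site of NR5A1, in 1 peak of each list, beside 1.18% and 1.08%. Over the whole overlap of the 18 shared pairs, which are of unequal width, 8 held an AP-1 pattern and 11 a TEAD pattern, beside 54.6% and 56.3% of all 4967 shared pairs of the lists.

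LTBP2, a matrix relative of LTBP1, did not share its imbalance. It had 2 iBRG1 and 3 i∆HSA peaks (like-length means 1.53 and 1.59), and both iBRG1 peaks were shared, in intron 3. One pair had an iBRG1 score of 12 (chr14:75037578-75040671) and an i∆HSA score of 6 (chr14:75037791-75041039), and the other had scores of 3 (chr14:75030301-75031512) and 23 (chr14:75029256-75031288). The overlap of the pair with the score of 23 was AT-rich, at 26.4% GC, with 0% GC in its central 100 bases. Its i∆HSA peak was 35.2% GC, and the part of base composition in the score was not tested. When peaks under 25% GC were left out, the i∆HSA peaks at members went from 56 to 54. Those left out were the SMAD2 peak of score 75 and the BMP5 peak of score 9, at 22.9% and 24.4% GC. The members with a shared peak went from 13 to 12. This alternative was chosen after the data were seen.

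LTBP3, the third latency protein gene, had no iBRG1 peak and 2 i∆HSA peaks of scores 8 (chr11:65326155-65328018), at its start, and 5 (chr11:65316646-65320436), at an internal start. Of genes of like length, 9.16% had as many. TGFBI, a TGF-beta-induced matrix protein gene, had 2 iBRG1 peaks of scores 8 (chr5:135389289-135390061) and 2 (chr5:135393924-135395063), both at internal starts, and no i∆HSA peak, and 10.3% of genes of like length had as many. CHRD, the BMP antagonist chordin, had 1 i∆HSA peak of score 3.

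**Figure D5:**
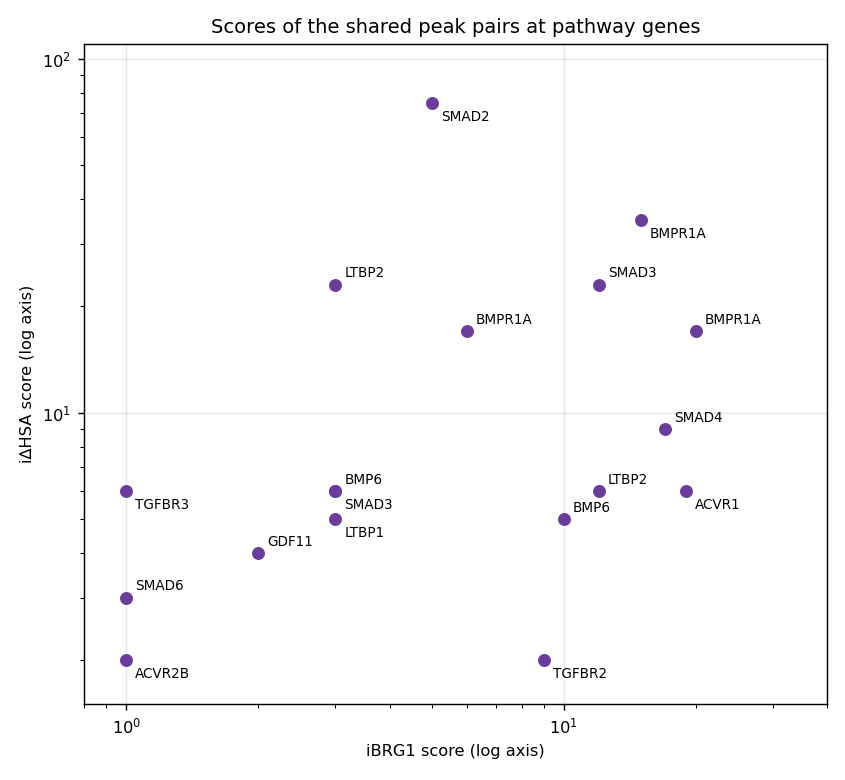
Scores of the 18 shared pairs at members, iBRG1 on the horizontal and i∆HSA on the vertical axis (both log axes, scale of the score not stated). Each point is 1 pair, and 1 pair each of BMP6 and SMAD3 coincide at 3 and 6. The highest iBRG1 scores are at BMPR1A (20), ACVR1 (19) and SMAD4 (17), and the highest i∆HSA scores at SMAD2 (75) and BMPR1A (35). The SMAD2 pair and 1 pair of LTBP2 have iBRG1 scores of 5 and 3 beside i∆HSA scores of 75 and 23.

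Both peaks had a score of at least 5 in 9 of the 18 pairs, beside 46.1% of all shared pairs of the lists. These were at BMPR1A (3 pairs), SMAD3, SMAD4, SMAD2, ACVR1, LTBP2 and BMP6. By percentile within its own list, the i∆HSA peak ranked higher in 12 pairs, near-ties included, and the iBRG1 peak in 6. Over all shared pairs of the lists the i∆HSA peak ranked higher in 52.4%.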

How the data were processed

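CUT&RUN with an anti-V5 antibody was measured in 4 samples of SW-13 cells, 2 of iBRG1 and 2 of i∆HSA, grouped by their titles. The authors used Cutadapt, Bowtie2 and Picard to trim, align and de-duplicate reads and MACS2 2.2 to call peaks. On the deposited scale 18 of 58 iBRG1 and 25 of 56 i∆HSA peaks at members had a score of at least 5. The authors describe removing peaks of negative controls and setting a minimum score of 5, without stating its scale. The deposited score is a whole number of unstated scale that reached down to 0, so that filter cannot be seen in the lists, and weak peaks, which make up most of each list, may include noise. For each construct the paper counts fewer peaks than the list used here holds. Whether replicates were pooled is not stated. A list from a deeper library can hold more weak peaks, and the lists do not give the depth reached, for which the study's methods name only a target.

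The submitters' processing notes name hg19, and 0 peaks ended beyond a GRCh37 chromosome. Peaks were set against GENCODE release 44 mapped to GRCh37, with 1-based positions, using pysam 0.24.0, pandas 2.3.3, numpy 2.4.6, scipy 1.17.1 and, for figures, matplotlib 3.10.9 in Python 3.11.15. The place of a peak was the first that applied of promoter, 5' UTR, 3' UTR, coding exon, non-coding exon, intron, upstream and downstream of the gene. Intron numbers follow the canonical transcript. The overlap steps were tested on simulated intervals. Values are descriptions without tests, as peaks and genes are not replicates.

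All members with a peak in both lists, with a promoter peak or with at least 3 peaks in a list were named with values, and other pathway genes only where they had a shared peak, except 1 gene and some sequences that are not reported here. The members and lists were chosen with earlier results of these data known. Alternatives were the window, a minimum score of 5, the 5000 highest-scoring peaks, a reciprocal overlap of 50%, other promoter, length and pattern windows, assignment to the nearest start and, added after the data were seen, 25% GC and the canonical start. Intervals are 95% Wilson intervals.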

Additional observations from a re-analysis of the deposited data

How the results depend on the processing

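Of 79 values under alternative settings, 54 stayed within 1.5 times the reported count, or within the 95% interval of the reported share or ratio, and 25 moved. Those intervals are wide, and inside them the AP-1 share of i∆HSA peaks was 12.0% at scores of at least 5 and that of iBRG1 peaks 25.9% in windows of 250 bp. With scores of at least 5, members with a peak fell to 14 for iBRG1, 15 for i∆HSA and 9 for both, members with a shared peak to 7, and members with a promoter peak to 4 for each construct. The peaks fell to 18 iBRG1, of which 50.0% were shared, and 25 i∆HSA. Among the 5000 highest-scoring peaks of each list the members with a peak were 12, 7 and 4, with a shared peak 3, and the peaks were 16 iBRG1 and 9 i∆HSA, of which 55.6% of i∆HSA were shared. Both settings keep fewer peaks. The ratio to genes of like length was 1.41 for iBRG1 and 0.90 for i∆HSA among the 5000 highest-scoring peaks and 1.23 and 1.14 at scores of at least 5, beside 1.21 and 1.10 with all peaks. Requiring a reciprocal overlap of 50% left 8 members with a shared peak and 19.0% and 19.6% of peaks shared. Whole-list shares under that rule were not worked out, so these shares cannot be set against those of the 1 bp rule. Promoters of 3 kb gave 14 members for i∆HSA, coding transcripts alone 4 and 5, and the canonical start alone 2 and 3. The AP-1 share of i∆HSA peaks was 17.9% in windows of 250 bp, which are wider. For the counts of members in this paragraph, shares over all protein-coding genes were worked out only for the canonical start. The shared percentages and the AP-1 shares likewise have no whole-list value at the same setting.

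No paired analysis was possible because the 2 replicates of a construct are not told apart in its single list, and for that reason no alternative leaves out a replicate. The vehicle-treated cells and negative controls of the study were not analysed here.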

Other observations

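A further 50 genes of the pathway gave a similar picture to the members. An iBRG1 peak was found at 20, beside 44.1% of protein-coding genes and 19.8 by like length. An i∆HSA peak was found at 28, beside 49.2% and 22.8. Both lists had a peak at 17 (30% of protein-coding genes) and neither at 19. The genes held 32 iBRG1 and 38 i∆HSA peaks beside 31.6 and 35.9 for genes of like length. A shared peak was found at 9, beside 7.15 by like length.

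Transcriptional targets of the pathway were among the 9. ID2 and ID3, BMP targets that inhibit helix-loop-helix factors, had shared pairs at or near their starts, ID2 at scores of 6 (chr2:8819479-8822526) and 10 (chr2:8819303-8821749) and ID3 at scores of 7 (chr1:23885773-23889523) and 19 (chr1:23887977-23889548). PMEPA1, a TGF-beta target that restrains the pathway, had a pair in an intron at scores of 3 and 4.

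The ubiquitin ligases SMURF1 and SMURF2, which mark receptors and SMADs for degradation, each had a shared intronic pair. SMURF1 had scores of 22 (chr7:98699724-98701864) and 9 (chr7:98699520-98701473), and SMURF2 scores of 17 (chr17:62618334-62620350) and 11 (chr17:62618057-62620331). BMPER, an extracellular BMP modulator, had a pair in an intron at scores of 13 and 8. THBS1, whose product thrombospondin can release latent TGF-beta, and AMHR2, the receptor of anti-Müllerian hormone, had shared promoter pairs at scores of 2 and 7 and of 5 and 17.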
